A study of Mus musculus with 15 samples.

Results

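Axonal transport runs on microtubule motors. Kinesins carry vesicles, mitochondria and RNA mostly outward from the cell body, and cytoplasmic dynein, held to its cargo by dynactin, carries endosomes and survival signals back. Motor neurons depend on both because their axons are long, and variants in KIF5A, DYNC1H1 and DCTN1 are known causes of motor neuron disease in people. The genes described here are kinesins, kinesin light chains, dynein chains and the dynactin subunits Dctn1 to Dctn6. They were chosen by their symbols and by a mean of at least 1 TPM over 15 libraries. TPM is a transcript level scaled to library total and transcript length. The symbol rule left out some genes of these families, such as the Dynlt1 light chains and the Kifc kinesins, which are read below among the partners. The symbols matched 60 of the 36144 genes in the table, and 50 of the 60 reached that level and are the members. Kif4 (mean 1.11 TPM) and Kif6 (1.23 TPM) lay just inside the bound, and Kif9 (0.961 TPM) just outside.

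The libraries came from lumbar (L1 to L3) motor neurons of mice at postnatal day 6, labelled with cholera toxin subunit B, a tracer taken up at axon endings, and cut out by laser. All mice were on an FVB background and carried the human SMN2 and SMNΔ7 transgenes. The WT group were littermates with both mouse Smn alleles (Smn+/+;SMN2;SMNΔ7), and the SMA group lacked them (Smn−/−;SMN2;SMNΔ7), which makes them a model of spinal muscular atrophy. Both received vehicle. The other groups were SMA mice given MW150 at 5 mg/kg (an inhibitor of the kinase p38α), Pifithrin-α at 2.2 mg/kg (an inhibitor of p53) or SMN-C3 at 3 mg/kg (a compound that raises full-length SMN from SMN2 by changing its splicing). Compounds were injected into the peritoneum once a day, starting at postnatal day 0, and males and females were used in equal proportions. Each group had 3 libraries, described as biological replicates. Whether a library pooled animals is not given in the sources used here, so p-values measure the spread between these libraries.

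Smn1 stood at 8.97 to 23.3 TPM in WT and at no more than 1.498 TPM in any library of the other groups. Every gene of the 7-gene motor neuron list was detected in each group. Genes of other cells were present too. The 10 microglial genes summed to 56.0 to 88.7 TPM in WT and 160.4 to 190.9 TPM in SMA. All SMA sums of this list lay above all WT sums. The 8 astrocyte genes summed to 745.8 to 1453 TPM in WT and 1347 to 1822 TPM in SMA. The 10 oligodendrocyte genes summed to 752.6 to 2285 TPM in WT, 951.3 to 4683 TPM in SMA and 1063 to 6501 TPM with MW150. The motor neuron list stood at 1275 to 2505 TPM in WT and 2184 to 2738 TPM in SMA. The microglial, astrocyte and oligodendrocyte lists had median differences of 0.90, 0.45 and 1.06 in SMA against WT (log2). In the limma test described below, 1 of the 10 microglial genes passed, higher in SMA, against 0.363% of all tested genes. No astrocyte or oligodendrocyte gene of the lists passed. For 7 of the 10 microglial genes every SMA library was above every WT library, against 14.5% of all tested genes. The part of these cells in the results below was not tested. In such captures, fewer cells of a type and less RNA per cell cannot be told apart. Libraries WT 1 and SMA+Pifithrin-α 3 stood apart: mitochondrial genes held 21.9% and 20.4% of their TPM, against 3.76% to 12.6% in the other 13. WT 1 gave the lowest value of all libraries for 14 of the 50 members (28.0%, against 28.8% of all tested genes). SMA+Pifithrin-α 3 likewise did so for 14 (28.0%, against 27.3%). WT 1 was also the highest library for 9 of the 50, against 15.8% of all tested genes. In some other libraries the members departed from all tested genes. SMA+Pifithrin-α 1 was highest for 15 of the 50 (against 11.7%) and SMA+SMN-C3 2 lowest for 11 (against 9.35%). In the other direction, SMA 1 was highest for 3 of the 50 (against 11.9%). Since TPM tables carry no read counts, sequencing depth is unknown here and no counting interval is given.

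The members together held 0.462% to 0.636% of all TPM. In WT, 13 members averaged at least 100 TPM, 16 lay between 10 and 100 TPM, and 21 were under 10 TPM. TPM is a level per transcript length, so levels are set side by side between genes, but coverage along transcripts was not examined. Short transcripts held much of some genes' TPM in WT. One of 295 bases held 80.9% for Kif22, and one of 539 bases held 46.5% for Dynll1. The 13 members of at least 100 TPM were the dynein light chains Dynll1, Dynlrb1, Dynlt3 and Dynll2, and the dynactin subunits Dctn3, Dctn2, Dctn6 and Dctn5. With them were the kinesin-1 chains Klc1, Kif5c and Kif5b, and Kif1a and Kif3a. Other members of these roles were lower, such as Dctn4 (28.6 TPM) and Klc3 (2.70 TPM). The plot of levels by role shows that the spindle kinesins were near the bottom with 1 exception, Kif22.

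**Figure D1:**
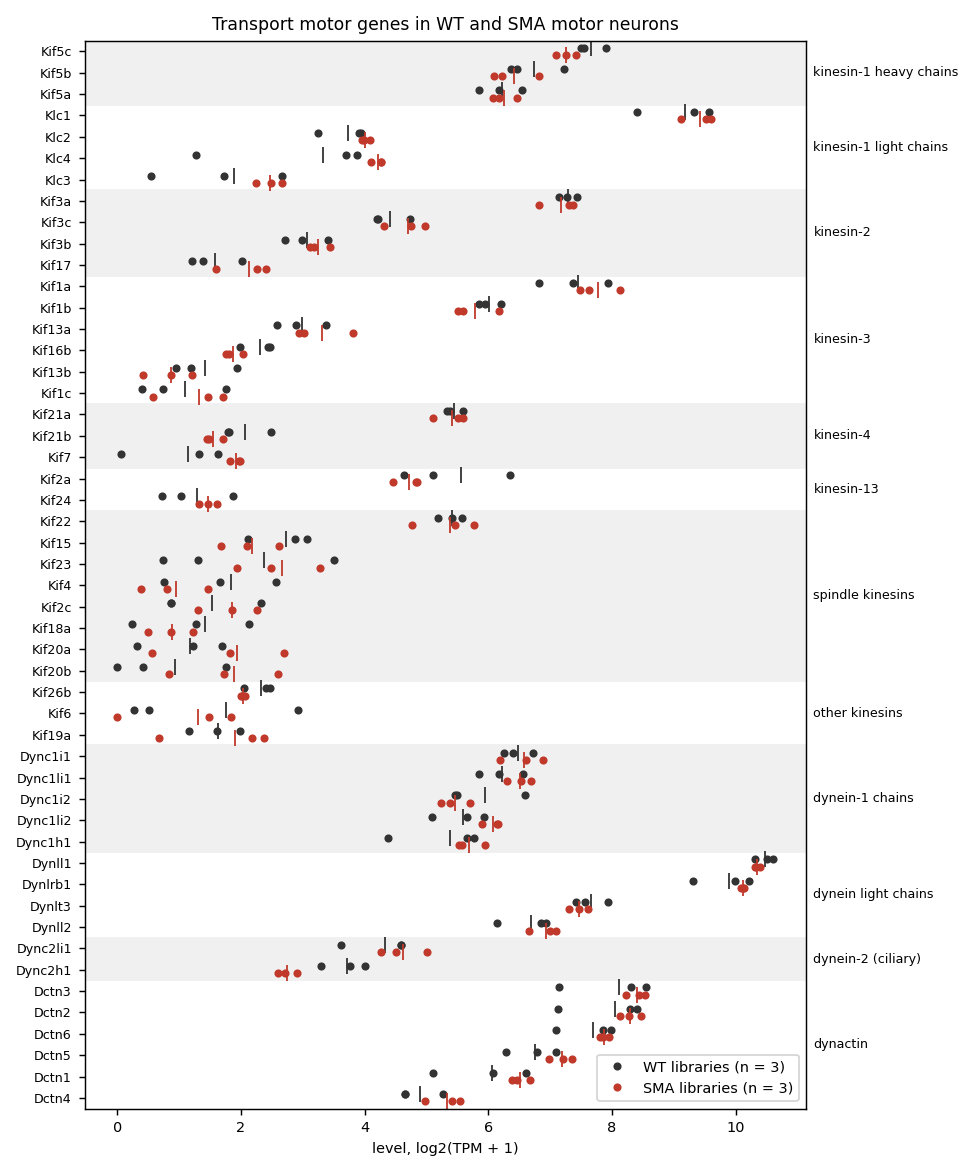
Level of each of the 50 members on the log2(TPM + 1) scale in the 3 WT libraries (dark points) and the 3 SMA libraries (red points), grouped by role; vertical ticks are group means of TPM. The points of both groups overlap for most members, and Dync2h1 and Kif5c are among those whose SMA points all lie left of the WT points.

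Kinesin-1 is built from heavy chains, which walk, and light chains, which bind cargo. All 3 heavy chain genes were expressed. Kif5c, enriched in neurons, was the highest at 200.5 ± 32.1 TPM in WT (SD, n = 3). Kif5b, the widely expressed heavy chain, followed at 105.4 ± 36.7 TPM and Kif5a, restricted to neurons, at 73.5 ± 18.0 TPM (SD, n = 3). Kif5c was above Kif5b in 15 of 15 libraries, whereas Kif5b was above Kif5a in 9, so those neighbours did not differ beyond the spread. Among the light chains, Klc1 stood at 578.6 ± 216 TPM in WT (SD, n = 3), far above Klc2 at 12.3 ± 3.28 TPM, Klc4 at 9.05 ± 6.67 TPM and Klc3 at 2.70 ± 2.46 TPM.

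Kinesin-2 and kinesin-3 motors carry vesicles along axons and, for kinesin-2, cilia. Kif3a, which pairs with Kif3b or Kif3c, stood at 154.8 ± 16.4 TPM in WT (SD, n = 3). Its partners were far lower, Kif3c at 20.2 ± 4.69 TPM and Kif3b at 7.38 ± 2.08 TPM, in the same order in 15 of 15 libraries. Kif17, a motor of dendrites and cilia, was at 1.97 ± 0.927 TPM. Kif1a, the carrier of synaptic vesicle precursors, stood at 173.3 ± 66.5 TPM and exceeded Kif1b, whose forms carry mitochondria and synaptic vesicle precursors, at 63.3 ± 8.54 TPM (SD, n = 3), in 15 of 15 libraries. A Kif1a transcript of 528 bases held 41.3, 103 and 49.0 TPM in WT, and one of 8206 bases 45.7, 70.9 and 78.3 TPM. The latter was below the 10233-base Kif1b transcript in WT 1 (45.7 against 54.7 TPM) and SMA+Pifithrin-α 3 (26.4 against 37.7 TPM). Kif13a, an endosome motor, was at 6.91 ± 2.27 TPM and Kif16b, another endosome motor, at 3.96 ± 0.889 TPM. In kinesin-4, Kif21a (42.4 ± 4.29 TPM) was far above Kif21b (3.16 ± 1.22 TPM) and Kif7, a regulator of Hedgehog signalling in cilia (1.21 ± 1.05 TPM). Kif2a, a kinesin-13 that shortens microtubules rather than walking, was at 46.0 ± 30.6 TPM, and its WT libraries held 80.9, 33.3 and 23.9 TPM, with WT 1 highest.

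Kinesins known for work on the mitotic spindle averaged 5.65 ± 2.10 TPM (Kif15), 4.15 ± 5.35 TPM (Kif23) and 2.59 ± 2.15 TPM (Kif4) in WT (SD, n = 3), and Kif22 41.3 ± 5.71 TPM. The 10 genes of the dividing-cell list were all detected, with summed levels of 32.6 to 46.4 TPM in WT and 34.6 to 56.3 TPM in SMA. The level of Kif22 needs its transcripts to be read: 80.9% of its TPM in WT was assigned to ENSMUST00000206655.1, a retained-intron transcript of 295 bases, and its protein-coding transcripts summed to 7.71 ± 2.91 TPM (SD, n = 3). In the remaining group, Kif26b, Kif6 and Kif19a averaged 3.99 ± 0.768, 2.39 ± 3.59 and 2.07 ± 0.868 TPM in WT.

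Cytoplasmic dynein-1 holds a motor heavy chain, intermediate and light intermediate chains that link it to cargo and dynactin, and small light chains. In WT the level of the intermediate chain Dync1i1, the neuronal form, was 87.8 ± 14.8 TPM, the light intermediate chains Dync1li1 and Dync1li2 were at 73.7 ± 18.5 and 47.4 ± 13.7 TPM, the second intermediate chain Dync1i2 was at 60.9 ± 30.2 TPM and the heavy chain Dync1h1 at 40.8 ± 18.3 TPM (SD, n = 3). Dync1li1 was above Dync1li2 in 15 of 15 libraries and Dync1i1 above Dync1i2 in 14. The light chains were the most abundant members: Dynll1, a hub protein with partners beyond dynein, at 1426 ± 147 TPM, Dynlrb1 at 943.8 ± 285 TPM, Dynlt3 at 201.2 ± 38.4 TPM and Dynll2 at 101.7 ± 27.9 TPM in WT (SD, n = 3), an order that held in 15 of 15 libraries. Outside the symbol rule, the light chains Dynlt1f and Dynlt1b averaged 206.7 ± 58.2 and 187.2 ± 62.1 TPM in WT, near the level of Dynlt3. The subunits of dynein-2, the motor of cilia, were low: Dync2li1 at 19.1 ± 6.71 TPM and its heavy chain Dync2h1 at 12.2 ± 3.18 TPM. Among dynactin subunits, Dctn3 (276.7 ± 122 TPM) and Dctn2 (263.3 ± 109 TPM), both of the shoulder that joins the arm to the filament, did not differ beyond their spread, with Dctn2 higher in 6 of 15 libraries. Dctn6 (206.3 ± 61.9 TPM) and Dctn5 (107.1 ± 29.4 TPM), of the pointed end, came next. Dctn1, the p150Glued arm that binds dynein and microtubules, was at 65.4 ± 31.6 TPM.

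A gene's TPM sums its transcripts, and not all of them code for protein. In WT the largest transcript of 37 members was protein coding and that of 13 was not. Coding transcripts held at least 90% of the TPM of 26 members and under 50% of 12, most of them low kinesins. Kif5a was wholly coding (100.0%) and Dctn1 nearly so (99.3%), whereas Dync1h1 was 56.1% coding, with 43.9% in retained-intron transcripts. Its coding level in WT was 22.9 ± 8.89 TPM (SD, n = 3). Dctn6 was 53.9% coding. Dynll1 was 46.4% coding in WT, so that by coding transcripts alone Dynll1 (662.0 ± 161 TPM) lay below Dynlrb1 (920.3 ± 275 TPM). Kallisto, named in the submitters' processing notes, divides reads among overlapping transcripts by estimation, so the split within a gene is less certain than the gene's sum.

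**Figure D2:**
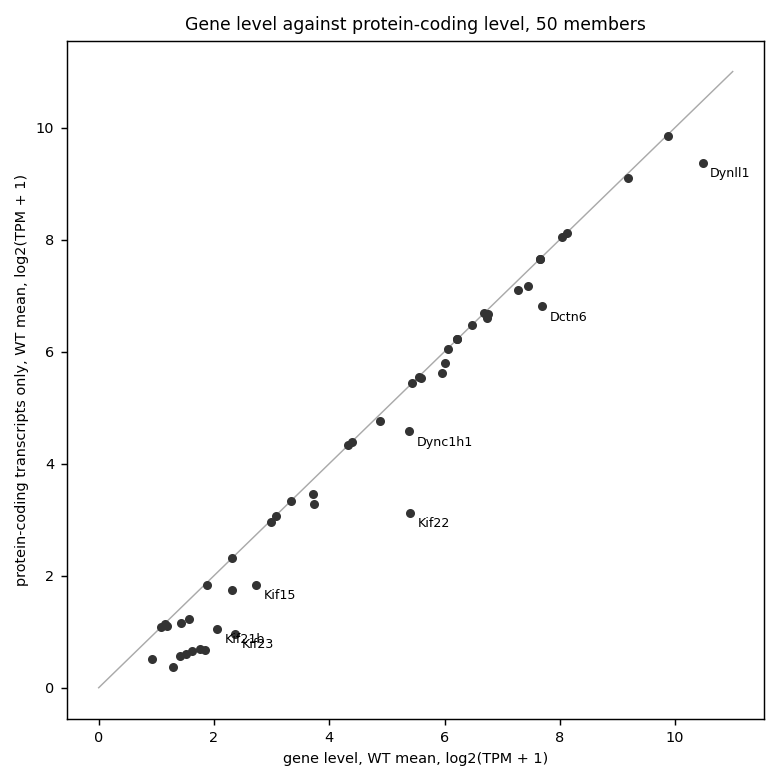
Mean level over the 3 WT libraries of each of the 50 members counted over all its transcripts (horizontal axis) and over protein-coding transcripts only (vertical axis), both as log2(TPM + 1); the line marks equality, and members above 2 on the horizontal axis that fall over 0.7 below it are named. Kif22, Dync1h1, Dynll1 and Dctn6 fall below the line.

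The comparison of SMA with WT asked what loss of Smn does to these motor neurons. No member passed the test (limma on log2(TPM + 1), Benjamini-Hochberg adjusted p under 0.05 over 15425 genes), 0 of 50 against 0.363% of all tested genes. At an unadjusted p under 0.05 there were 3 of 50 (6%), against 13.5% of all tested genes. The smallest adjusted p of a member in this limma comparison was 0.323. The members' median difference was 0.27 on the log2(TPM + 1) scale beside 0.24 for all tested genes, with 31 members above 0 and 19 below. The median half-width of the 95% interval of a member's difference was 0.76, and for 20 of 50 members the interval lay within 1 log2 unit of 0 on both sides. For the other 30 a difference of 1 unit on the log2(TPM + 1) scale was not excluded by these libraries. For low genes a 2-fold change in TPM is less than 1 unit on this scale, so the interval bounds it less well.

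The 5 genes followed by name were spread across roles. Kif5a (chr10:127225696-127263348, GRCm38) held 56.7, 71.3 and 92.5 TPM in the 3 WT libraries and 66.6, 86.9 and 71.1 TPM in SMA, so that the SMA values lay inside the WT range. Its difference was 0.04 ± 0.30 (log2, SE; limma adjusted p = 0.948). Kif1b (chr4:149176319-149307693) held 72.8, 60.7 and 56.3 TPM in WT and 47.1, 70.8 and 44.5 TPM in SMA, which overlap, with a difference of -0.24 ± 0.28 (log2, SE; limma adjusted p = 0.665).

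Dync1h1 (chr12:110601452-110666945) held 19.8, 49.2 and 53.5 TPM in WT and 46.3, 60.4 and 45.1 TPM in SMA. The low WT value is that of WT 1, and the difference of 0.41 ± 0.48 (log2, SE; limma adjusted p = 0.675) was -0.0314 without that library. Dctn1 (chr6:83165920-83200117) behaved alike, at 33.3, 66.5 and 96.5 TPM in WT and 100.6, 82.1 and 87.6 TPM in SMA, a difference of 0.58 ± 0.49 (log2, SE; limma adjusted p = 0.561) that was 0.16 without WT 1 and 0.92 without WT 3. Its groups overlapped, and only WT 1 was far below the SMA values. Dynll1 (chr5:115297110-115300999) held 1446, 1561 and 1270 TPM in WT and 1286, 1348 and 1268 TPM in SMA, a difference of -0.13 ± 0.21 (log2, SE; limma adjusted p = 0.769), with overlapping groups and the narrowest interval of the 5 (-0.57 to 0.31).

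Dctn1 and Dync1h1 belong to the 24 members that are overlapped by a gene on the other strand in GENCODE M21. The labels do not say whether the libraries kept strand, so reads from such neighbours cannot be told apart.

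Members whose groups did not overlap between SMA and WT numbered 3 higher in SMA (6%, against 14.5% of all tested genes) and 3 lower (6%, against 3.81%). They are given by their values, since none passed the limma test. Dync2h1, the ciliary dynein heavy chain (chr9:6928503-7184446), held 15.1, 12.6 and 8.81 TPM in WT and 5.04, 5.52 and 6.46 TPM in SMA, a difference of -0.96 (log2). Every SMA library was below every WT library, and the WT libraries spread more than the SMA ones. WT 1 was the highest, and the difference ran from -1.16 to -0.80 when single libraries were left out. The 7 genes of the ciliated ependymal list summed to 4.74 to 8.26 TPM in WT, with Tmem212 listed at 0 in all 3, and to 10.5 to 17.6 TPM in SMA. Rsph1 did not overlap (2.60 to 5.48 TPM in WT, 7.78 to 15.6 TPM in SMA), while the sums of the other 6 genes did, at 2.14 to 3.47 TPM in WT and 2.04 to 3.82 TPM in SMA. The part of ciliated cells in the Dync2h1 difference was not tested. The other dynein-2 subunit, Dync2li1, overlapped between the groups.

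Kif5c held 237.5, 179.2 and 184.9 TPM in WT and 135.7, 169.3 and 151.2 TPM in SMA, a difference of -0.39 (log2), and its interval ran from -0.82 to 0.04. With median-of-ratios scaling the difference was -0.65, and it ran from -0.47 to -0.26 when single libraries were left out. The highest WT value was that of WT 1. The gap between the lowest WT and the highest SMA value was small beside the spread within either group. Kif21b held 4.57, 2.47 and 2.44 TPM in WT and 1.79, 2.25 and 1.72 TPM in SMA, a difference of -0.48 (log2) between low levels that was -0.25 without WT 1. Its coding transcripts averaged 1.07 ± 0.755 TPM in WT and 1.21 ± 0.0790 TPM in SMA (SD, n = 3), and its retained-intron share was 36.9% in WT and 2.41% in SMA.

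Of the higher members, the light chain Klc4 held 1.41, 13.7 and 12.0 TPM in WT and 16.2, 18.3 and 18.3 TPM in SMA, a difference of 1.27 (log2) that was 0.42 without the very low WT 1. Klc2 held 13.9, 8.51 and 14.4 TPM in WT and 14.6, 14.8 and 16.0 TPM in SMA, close neighbours with a difference of 0.31 (log2), or 0.0864 without WT 2. Kif7 held 0.0412, 2.09 and 1.504 TPM in WT and 2.97, 2.90 and 2.52 TPM in SMA, a difference of 0.92 (log2), again with WT 1 lowest, and of 0.45 without it. All 3 genes are overlapped by a gene on the other strand.

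By role, all 6 dynactin subunits (median 0.42), all 4 kinesin-1 light chains (0.56) and 4 of 5 dynein-1 chains (0.31) had differences above 0 in SMA against WT, and 2 of 3 kinesin-1 heavy chains were below (-0.30). The median of all tested genes, 0.24, lay above 0 as well, so these medians are read against it and none of these members was called. Leaving out WT 1 brought the median of the 50 members to 0.0118 and that of all tested genes to 0.12. With median-of-ratios scaling they were 0.0166 and 0.0308.

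**Figure D3:**
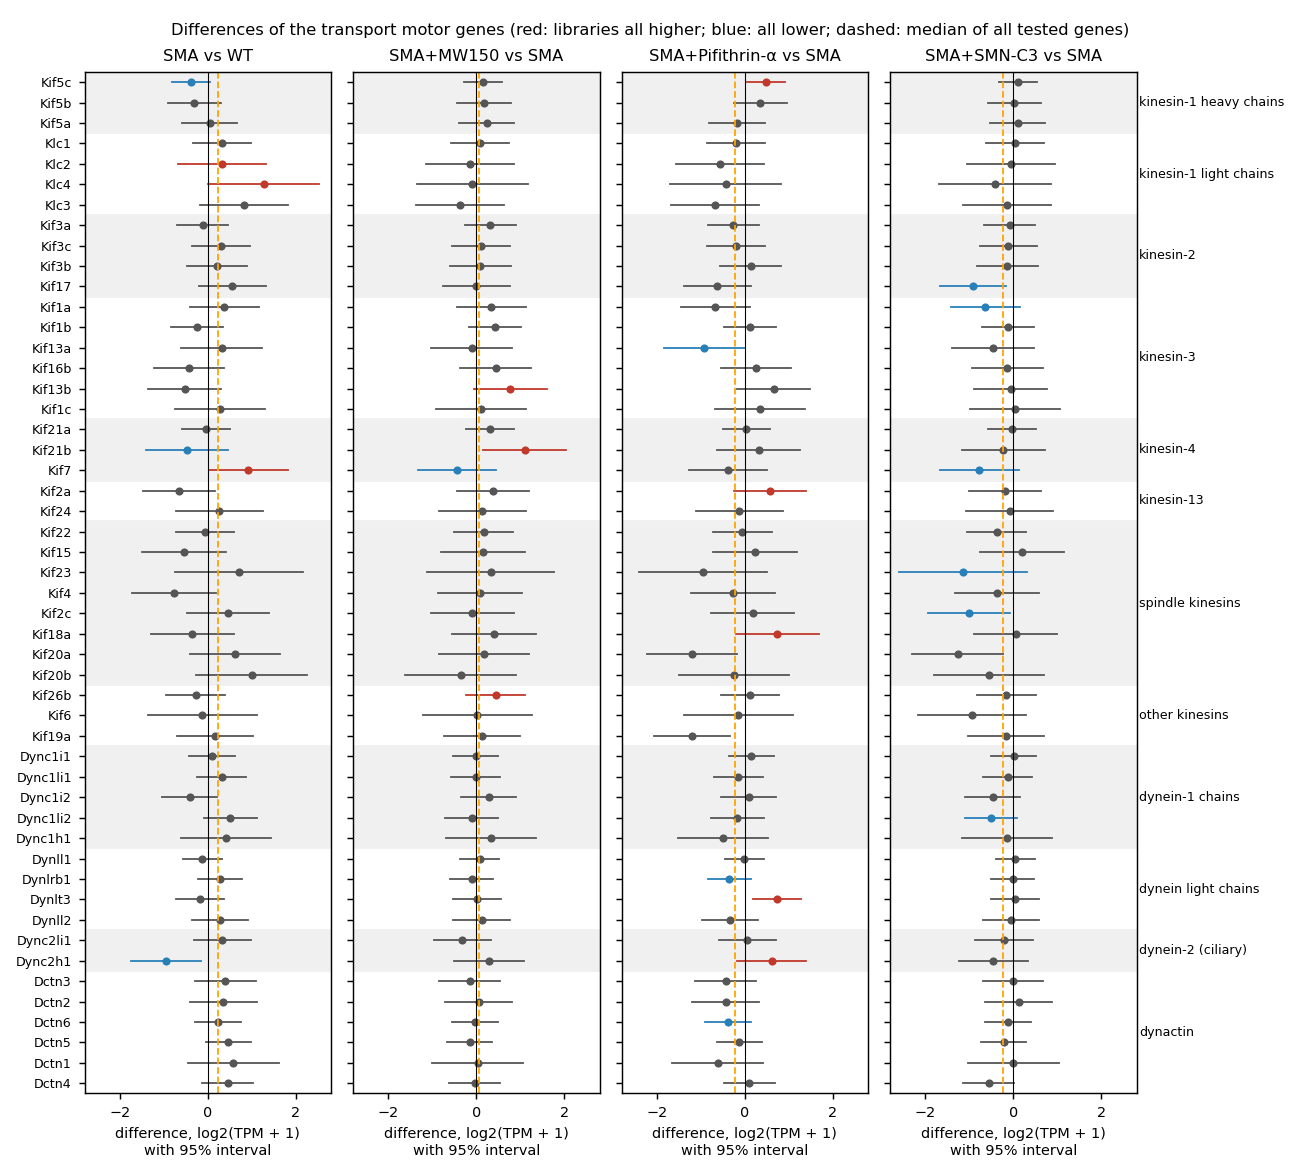
Difference of each of the 50 members in SMA against WT and in each treated SMA group against SMA, on the log2(TPM + 1) scale, with its 95% interval; red marks members whose 3 libraries are all higher than the 3 compared, blue all lower, and the dashed line is the median of all tested genes. Most intervals cross 0, and the medians of all tested genes lie right of 0 in the first panel and left of 0 in the last.

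The treated groups were compared with the same SMA libraries, so the 3 comparisons share controls. With MW150, 0 of 50 members passed the limma test (0.00648% of all tested genes did) and 1 had an unadjusted p under 0.05 (2%, against 1.90%). The median difference of the members was 0.10 beside 0.06 for all tested genes (log2). The microglial, astrocyte and oligodendrocyte lists had medians of -0.31, -0.07 and 0.11 with MW150 against SMA, and their part was not tested. The groups were apart for 3 members with higher values (6%, against 7.53%) and 1 with lower (2%, against 3.41%). These are named after their values were seen: Kif21b, Kif13b and Kif26b were higher and Kif7 lower. Kif21b held 5.81, 3.88 and 6.30 TPM with MW150 against 1.79, 2.25 and 1.72 TPM in SMA, a difference of 1.10 (log2). All MW150 libraries lay above all SMA libraries, at a low level. The coding transcripts of Kif21b averaged 1.47 ± 1.32 TPM with MW150 and 1.21 ± 0.0790 TPM in SMA (SD, n = 3), and its retained-intron share was 37.1% with MW150 and 2.41% in SMA, so the gene-level difference lay mostly outside coding transcripts.

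Kif5a held 94.1, 87.5 and 82.4 TPM with MW150 (difference from SMA 0.24 ± 0.30, log2, SE) and Dync1h1 57.8, 66.6 and 66.0 TPM (0.33 ± 0.48). Kif1b held 96.4, 59.7 and 63.3 TPM (0.42 ± 0.28), Dctn1 94.4, 104.3 and 78.6 TPM (0.03 ± 0.49) and Dynll1 1326, 1432 and 1344 TPM (0.07 ± 0.21). For all 5 the limma adjusted p was 1 and the libraries overlapped with those of SMA. The interval for Dynll1, -0.37 to 0.51, was the narrowest, and that for Dctn1, -1.002 to 1.07, the widest. Coding transcripts of Dync1h1 averaged 29.1 ± 2.13 TPM with MW150 and 25.8 ± 3.63 TPM in SMA (SD, n = 3). Its retained-intron share was 54.1% with MW150 and 49.0% in SMA.

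With Pifithrin-α, 0 of 50 members passed the limma test (0.00648% of all tested genes) and 4 had an unadjusted p under 0.05 (8%, against 10.7%). The median difference was -0.15 beside -0.22 for all tested genes, and without SMA+Pifithrin-α 3 it was 0.11 beside 0.0050. A fit with array weights called 10 members (20%), below the 33.4% of all tested genes that it called, and its weights did not converge and rested on SMA+Pifithrin-α 2. All 10 microglial genes had differences below 0 as well, none past the limma test (median -1.27, 5 of them apart; summed 67.6 to 123.2 TPM), with medians of -0.73 for the astrocyte and -1.50 for the oligodendrocyte list, and their part was not tested. The libraries were apart for 5 members with higher values (10%, against 5.53%) and 3 with lower (6%, against 9.76%). The higher ones, named after their values were seen, were Dynlt3, Kif5c, Kif2a, Dync2h1 and Kif18a, and the lower ones Kif13a, Dynlrb1 and Dctn6. Dynlt3, a light chain that links dynein to cargo, held 220.4, 275.8 and 411.7 TPM against 194.1, 157.6 and 175.6 TPM in SMA, a difference of 0.74 (log2), or 0.49 without replicate 3. The highest value is that of SMA+Pifithrin-α 3, the library with the high mitochondrial share, and the other libraries of the group were above SMA too.

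Kif5c held 212.8, 212.3 and 210.8 TPM with Pifithrin-α against 135.7 to 169.3 TPM in SMA, a difference of 0.48 (log2; 0.74 with median-of-ratios scaling), and lay within the WT range of 179.2 to 237.5 TPM. Dync2h1 held 11.8, 9.75 and 6.52 TPM against 5.04 to 6.46 TPM in SMA, with the third library barely above the highest SMA value. Kif5a held 99.8, 73.2 and 38.6 TPM (-0.18 ± 0.30, log2, SE; limma adjusted p = 0.792), Dync1h1 76.5, 44.7 and 12.3 TPM (-0.50 ± 0.48; 0.631) and Dctn1 114.9, 86.0 and 19.5 TPM (-0.62 ± 0.49; 0.573). In each of these 3 genes the first library was the highest and SMA+Pifithrin-α 3 by far the lowest, and without that library the differences were 0.20, 0.22 and 0.15. Coding transcripts of Dync1h1 averaged 24.1 ± 13.1 TPM with Pifithrin-α and 25.8 ± 3.63 TPM in SMA (SD, n = 3). Its retained-intron share was 45.9% with Pifithrin-α and 49.0% in SMA. Kif1b held 77.2, 59.1 and 41.8 TPM (0.12 ± 0.28; limma adjusted p = 0.863) and Dynll1 1066, 1185 and 1692 TPM (-0.01 ± 0.21; 0.981), with SMA+Pifithrin-α 3 the lowest for Kif1b and the highest for Dynll1.

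With SMN-C3, 0 of 50 members passed the limma test (0.0648% of all tested genes) and 3 had an unadjusted p under 0.05 (6%, against 8.53%). The median difference was -0.13 beside -0.23 for all tested genes, and 38 members were below 0. With median-of-ratios scaling these medians were 0.0583 and -0.0264. Markers of other cells also had lower values, none past the limma test: all 10 microglial genes had differences below 0 (median -0.89, 6 of them apart; summed 88.7 to 114.5 TPM with SMN-C3), and the astrocyte and oligodendrocyte lists had medians of -0.84 and -0.87. Their part in the members' differences was not tested. No member had all 3 libraries above SMA (0%, against 2.52% of all tested genes) and 6 had all below (12%, against 18.2%). Those 6 were Kif17, Kif1a, Kif7, Kif23, Kif2c and Dync1li2. Kif1a held 112.0, 130.7 and 176.4 TPM against 196.6, 279.4 and 178.1 TPM in SMA, a difference of -0.64 (log2; -0.39 with median-of-ratios scaling), and its WT values of 112.3, 244.2 and 163.5 TPM covered most of both ranges. Of the Kif1a transcripts, ENSMUST00000186861.1 (528 bases) held 68.4, 114.4 and 67.05 TPM in SMA and 21.9, 38.1 and 65.1 TPM with SMN-C3. The longer ENSMUST00000171796.7 (8206 bases) differed less, at 70.7, 87.0 and 70.2 TPM in SMA and 61.6, 62.1 and 69.2 TPM with SMN-C3. Kif17 held 1.18, 0.922 and 1.69 TPM against 3.76, 4.29 and 2.02 TPM, a difference of -0.92 (log2) at a level near the bound for members. Dync1li2 held 38.3, 50.6 and 50.3 TPM against 70.2, 58.7 and 69.8 TPM, a difference of -0.51 (log2; -0.27 with that scaling), with WT at 32.9, 49.1 and 60.2 TPM.

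Kif5a was close to constant with SMN-C3, at 79.3, 80.2 and 80.7 TPM (0.10 ± 0.30, log2, SE; limma adjusted p = 0.952). Kif1b held 49.7, 47.4 and 48.1 TPM (-0.13 ± 0.28; limma adjusted p = 0.936), Dync1h1 39.8, 53.9 and 42.8 TPM (-0.15 ± 0.48; 0.957), Dctn1 71.4, 97.7 and 104.4 TPM (0.0027 ± 0.49; 1) and Dynll1 1402, 1346 and 1281 TPM (0.05 ± 0.21; 0.971). All 5 overlapped with SMA. Coding transcripts of Dync1h1 were on average higher with SMN-C3, at 29.0 ± 6.39 TPM against 25.8 ± 3.63 TPM in SMA (SD, n = 3). Its retained-intron share was 36.2% with SMN-C3 and 49.0% in SMA.

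**Figure D4:**
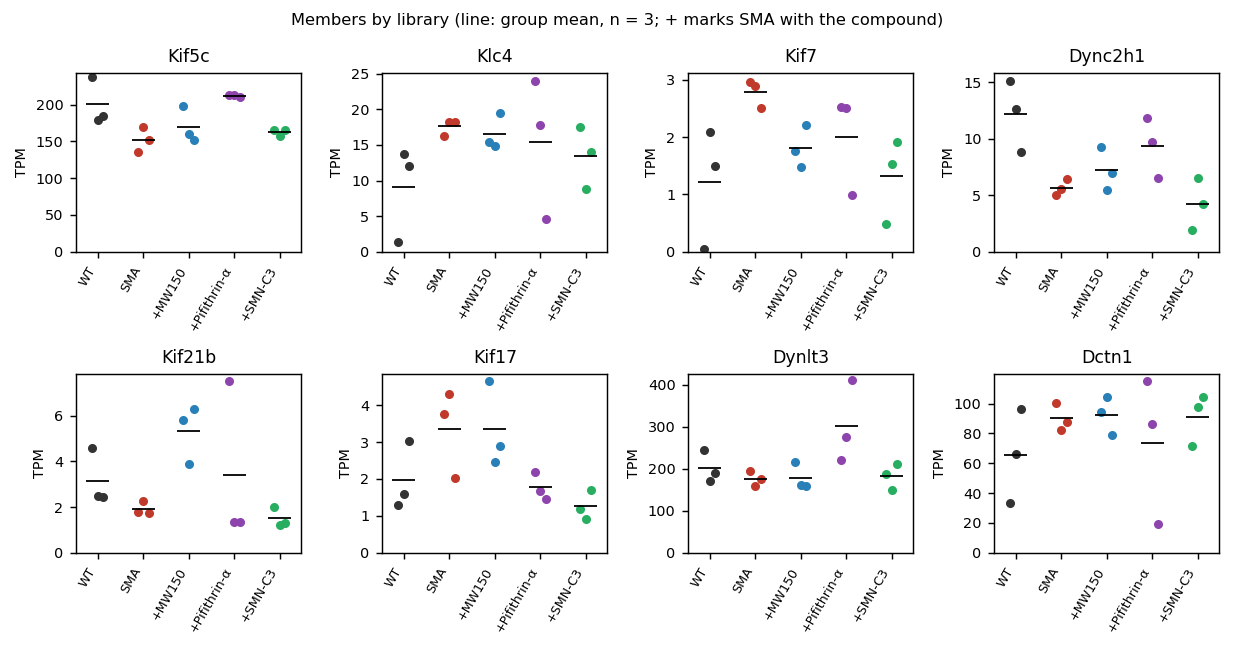
TPM of 8 members in each of the 15 libraries by group (points), with the group mean as a line; each vertical axis starts at 0. Dync2h1 and Kif5c are lower in all SMA than in all WT libraries, the low WT points of Klc4, Kif7 and Dctn1 are library WT 1, and the Pifithrin-α point of Dctn1 near the bottom is replicate 3.

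Against WT, the members called by limma were 0 of 50 in SMA+MW150 (0.143% of all tested genes), 0 of 50 in SMA+Pifithrin-α (0.117%) and 0 of 50 in SMA+SMN-C3 (0.0194%). Unadjusted p under 0.05 was reached by 0 members (0%, against 10.2%), 3 members (6%, against 5.78%) and 4 members (8%, against 7.31%). Dync2h1 was among the 4 with SMN-C3, at 1.91, 6.51 and 4.25 TPM against 15.1, 12.6 and 8.81 TPM in WT, all lower, a difference of -1.41 (log2). Its means ran from 12.2 ± 3.18 TPM in WT through 9.36 ± 2.67 with Pifithrin-α, 7.23 ± 1.92 with MW150 and 5.67 ± 0.723 in SMA to 4.219 ± 2.299 TPM with SMN-C3 (SD, n = 3 each). Each neighbouring pair of groups in this order overlapped.

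Genes that work with these motors were read from a list of 53 adaptors, activators and partner subunits, of which 52 were tested. The list also holds the Dynlt1 light chains and the Kifc kinesins that the symbol rule left out. In each of the 7 comparisons 0 of the 52 passed the limma test. In SMA against WT 8 were higher and 1 lower at an unadjusted p under 0.05, together 17.3% of the list against 13.5% of all tested genes, and the list's median difference was 0.31 beside 0.24 for all tested genes. The 4 with the highest WT means were Pafah1b1 (LIS1, the dynein activator) at 284.1 ± 369 TPM, Map7d2 (a kinesin-1 recruiting microtubule protein) at 278.8 ± 11.4 TPM, Fez1 (a kinesin-1 adaptor) at 238.1 ± 97.7 TPM and Capzb (the capping protein at dynactin's barbed end) at 235.8 ± 81.1 TPM (SD, n = 3). The SD of Pafah1b1 exceeded its mean. In SMA they averaged 62.3 ± 27.6, 253.2 ± 28.0, 348.6 ± 63.1 and 351.2 ± 55.0 TPM.

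Of the 332 transcripts listed for the members, 150 transcripts of 47 members passed the filter on low values. None of the 150 was called by limma in SMA against WT (0.221% of 41719 tested transcripts were), with MW150 (0.00240%), with Pifithrin-α (0.00479%) or with SMN-C3 (0.0120%). At an unadjusted p under 0.05 there were 7 (4.67%, against 12.2%), 8 (5.33%, against 4.52%), 12 (8%, against 8.33%) and 9 (6%, against 6.88%). The smallest limma adjusted p, 0.0556, belonged to a form of Dynll1 under SMN-C3. That transcript had been named with earlier results of these data in view, so its difference is no independent finding.

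The form is ENSMUST00000125959.1 (chr5:115300276-115300934, GRCm38, minus strand), annotated as retained intron. The coding transcript ENSMUST00000009157.3 joins exon 2, with the start of the coding sequence, to exon 3, with its end. The retained form runs past the end of exon 2 into intron 2 for 237 bases (chr5:115300276-115300512) and stops there, so it lacks exon 3. The 30 bases before and after the end of exon 2 are shown because they are where the 2 forms part. They are from GENCODE M21 in transcript direction, with exon 2 (chr5:115300513-115300542) in lower case and what follows it in capitals: exon 3 (chr5:115298804-115298833) in the first and intron 2 (chr5:115300483-115300512) in the second.
ENSMUST00000009157.3: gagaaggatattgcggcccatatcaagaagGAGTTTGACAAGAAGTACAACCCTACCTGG
ENSMUST00000125959.1: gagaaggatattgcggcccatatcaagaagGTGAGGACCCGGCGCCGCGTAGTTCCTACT

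The retained form held 20.6, 158.3 and 112.1 TPM in WT and 130.1, 157.8 and 175.8 TPM in SMA. It held 157.8, 210.1 and 161.6 TPM with MW150, 69.7, 69.7 and 34.2 TPM with Pifithrin-α, and 2.12, 0 and 19.5 TPM with SMN-C3. All SMN-C3 libraries were below all SMA libraries and below all WT libraries, with the lowest WT value, that of WT 1, close to the highest SMN-C3 value. The difference between SMN-C3 and SMA was -5.27 ± 0.83 (log2(TPM + 1), SE; limma adjusted p = 0.0556), just above the threshold. Over the alternative settings the limma adjusted p ran from 0.00380 to 0.257, lowest without SMA+SMN-C3 3. The Pifithrin-α libraries were below the SMA libraries too, by -1.46 ± 0.83 (limma adjusted p = 0.624), and the MW150 libraries overlapped with SMA.

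As a share of all Dynll1 TPM, the retained form made up 6.80% ± 4.70 in WT, 11.9% ± 1.88 in SMA, 12.9% ± 1.57 with MW150, 4.81% ± 2.44 with Pifithrin-α and 0.557% ± 0.837 with SMN-C3 (SD, n = 3 each). An exact two-sided permutation test of 3 libraries against 3 cannot go below p = 0.10. That floor was reached by SMN-C3 against SMA and by Pifithrin-α against SMA (exact permutation p = 0.10, adjusted over 4 comparisons 0.20), while SMA against WT gave 0.20 (adjusted 0.267) and MW150 against SMA 0.50 (adjusted 0.50). Since the form was chosen with earlier results of these data in view, these p-values are no independent support. The SMN-C3 share was 11.3 percentage points below that of SMA.

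The gene's sum did not follow. Dynll1 as a whole held 1281 to 1402 TPM with SMN-C3 and 1268 to 1348 TPM in SMA. The coding transcript ENSMUST00000009157.3 held 251.5, 361.5 and 286.5 TPM with SMN-C3, each above the 244.9, 202.4 and 197.5 TPM of SMA. The other coding transcript, ENSMUST00000112090.1, held 520.4, 528.6 and 537.2 TPM against 472.7, 476.6 and 458.7 TPM, also without overlap. In WT the former held 130.7, 253.9 and 242.9 TPM and the latter 362.5, 560.9 and 435.3 TPM. Of the members' 96 tested coding transcripts, 4 were higher than SMA without overlap (4.17%, against 3.69% of all tested). Kallisto divides the reads these forms share, so their differences are not independent of that of the retained form. Both coding forms together averaged 828.5 ± 59.3 TPM with SMN-C3 and 684.3 ± 31.1 TPM in SMA (SD, n = 3).

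Retained-intron transcripts as a class also had lower values with SMN-C3. With SMN-C3 against SMA, 27 of the members' 31 tested retained-intron transcripts had differences below 0 (median -0.49), beside 5912 of 7744 among all tested (median -0.35), and the members' protein-coding transcripts had a median of -0.16. With MW150 against SMA, 28 of the 31 were above 0 (median 0.42), beside 5970 of all 7744 (median 0.39). With Pifithrin-α against SMA, where the Dynll1 form was lower in all 3 libraries, the class was not: 17 of the 31 were above 0 and 14 below (median 0.0564), beside a median of 0.0482 over all 7744. The part of the class in the Dynll1 result was not tested. The Dynll1 form was named with earlier results of these data in view, so its difference of -5.27 is not weighed against the class median. With SMN-C3, 7 of the members' 31 retained-intron transcripts (22.6%) had every library below every SMA library, beside 1205 of all 7744 (15.6%). The Dynll1 form itself is counted in these 31 and 7, and in the 27 below 0.

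**Figure D5:**
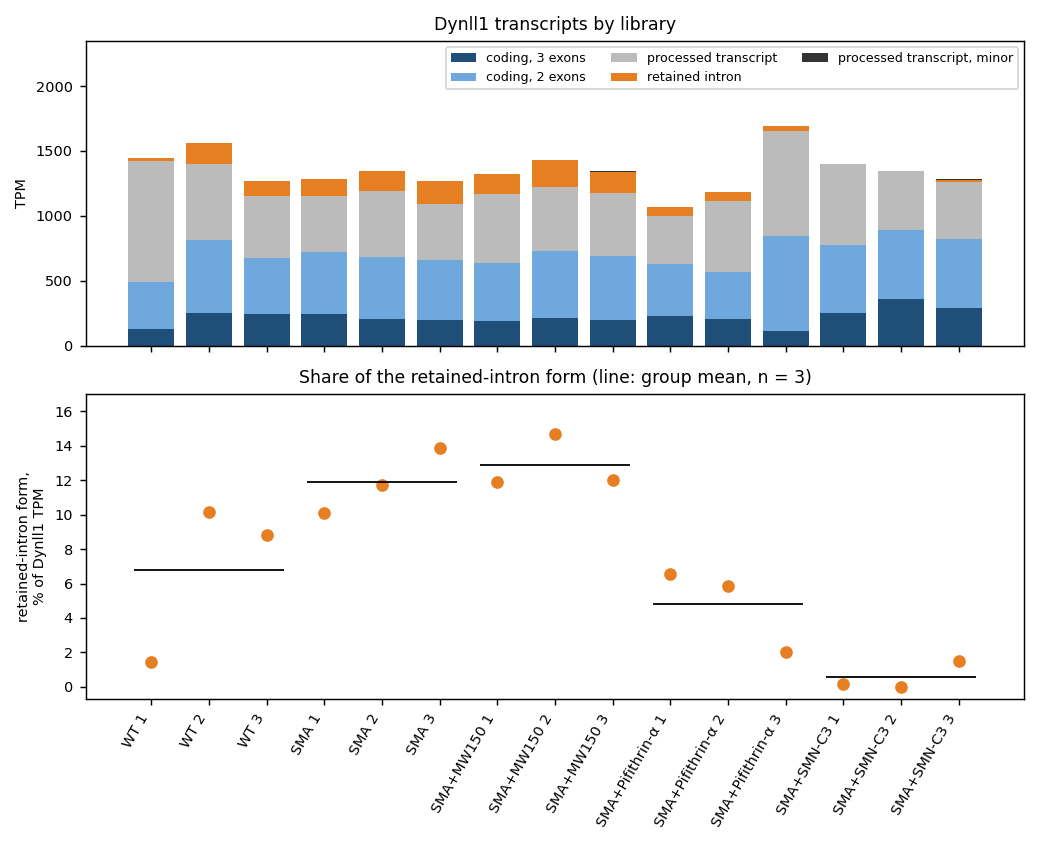
Top, TPM of the Dynll1 transcripts stacked for each of the 15 libraries (1 transcript that stays under 2 TPM is left out). Bottom, the retained-intron form ENSMUST00000125959.1 as a percentage of all Dynll1 TPM, with group means as lines; the SMN-C3 points lie at 0% to 1.52%, below the SMA points at 10.1% to 13.9%.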

How the data were processed

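The deposited tables give TPM for genes and for transcripts, made by the authors with kallisto 0.44.0 on GRCm38.p6 (mm10), per the submitters' processing notes; read filters and strand setting are not given in the sources used here. Every column summed to 1000000. Of 118489 transcripts, 116728 (98.5%) matched GENCODE M21, the source of coordinates and transcript types. The 50 members, the role, partner and marker lists and the Dynll1 transcript were chosen with earlier results of these data known.

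The filter on low values kept 15425 genes and 41719 transcripts that reached 1 TPM in 3 or more libraries. A linear model with 1 mean per group was fitted to log2(TPM + 1) of all 15 libraries with limma 3.58.1 in R 4.3.3, variance trend included, two-sided, with Benjamini-Hochberg adjustment within each of 7 comparisons. The pseudocount of 1 shrinks differences of low genes. Shares were compared by an exact permutation test. The script was tested on simulated data. Tables and figures used Python 3.11.15, pandas 2.3.3 and matplotlib 3.10.9. Values with a test of their own are those of Kif5a, Kif1b, Dync1h1, Dynll1, Dctn1 and any called member; others named are the up to 4 highest per role in WT and those whose SMA and WT libraries do not overlap, and, outside that rule and named after their values were seen, members whose treated and SMA libraries do not overlap. Alternatives were the pseudocount, the filter, scaling, mitochondrial genes, the samples fitted, array weights, a replicate block and leaving out libraries.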

Additional observations from a re-analysis of the deposited data

How the results depend on the processing

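Under median-of-ratios scaling the median of all tested genes in SMA against WT moved from 0.24 to 0.03, and that of the members to 0.0166; array weights gave the members 0.0137 and leaving out WT 1 and SMA+Pifithrin-α 3 gave 0.0118 (0.0118 to 0.32 when single libraries were left out, lowest without WT 1). With SMN-C3 the scaled median of the members was 0.0583. Array weights called 10 members in SMA+Pifithrin-α against SMA (20%, against 33.4% of all tested genes), 10 in SMA+Pifithrin-α against WT (20%, against 24.4%) and 1 in SMA+MW150 against WT (2%, against 1.61%); their estimate did not converge and gave SMA+Pifithrin-α 2 a weight of 275.9. The other alternatives called 0 members. With a filter at a mean of 5 TPM, which keeps 32 members, 0 members were apart with MW150 (0%, against 11.4% of all tested genes) and 2 with SMN-C3 (6.25%, against 21.6%). Leaving out 1 library, members apart numbered 8 to 20 (SMA against WT; most without WT 3, 40% against 34.6% of all tested genes), 5 to 19 (MW150; most without SMA 2, 38% against 28.9%), 8 to 20 (Pifithrin-α; most without its replicate 1, 40% against 42.7%) and 6 to 13 (SMN-C3; most without its replicate 1 or 2, 26% against 30.6% and 31.2%), as fewer libraries overlap less.

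Directions that turned belonged to differences that were never called. In SMA against WT, Kif5a was -0.21 with median-of-ratios scaling, -0.0645 without mitochondrial genes, -0.0594 with array weights and -0.13 without both libraries of high mitochondrial share (-0.13 to 0.22 leaving out 1), and Dync1h1 -0.0314 without both (-0.0314 to 0.66). With MW150, scaling gave Dynll1 -0.00280 and Dctn1 -0.0417 (Dctn1 -0.0587 to 0.14 leaving out 1). With Pifithrin-α, scaling gave Kif5a 0.0795 and Dynll1 0.25, removing mitochondrial genes Dynll1 0.11, and leaving out both libraries Kif5a 0.20, Dync1h1 0.22 and Dctn1 0.15. Leaving out 1 gave ranges of -0.48 to 0.20 (Kif5a), -1.05 to 0.22 (Dync1h1), -1.11 to 0.15 (Dctn1), -0.21 to 0.12 (Dynll1) and -0.0893 to 0.34 (Kif1b). With SMN-C3, scaling gave Kif1b 0.11 and Dync1h1 0.0887, and leaving out 1 gave Dctn1 -0.10 to 0.17 and Kif1b -0.25 to 0.0786. The cause was not tested.

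The Dynll1 retained form kept its direction with SMN-C3 in every alternative (-6.45 to -4.27 leaving out 1 library), with limma adjusted p of 0.0210 under array weights, 0.0265 without both libraries and 0.00380 without SMA+SMN-C3 3, and up to 0.257 (without SMA+SMN-C3 1) elsewhere. The form was chosen with earlier results of these data known, so none of these p-values is independent support. As a percentage of coding Dynll1 TPM its differences were 9.34 (SMA against WT), 2.91 (MW150), -13.6 (Pifithrin-α) and -21.8 points (SMN-C3). Replicate numbers did not pair the libraries (0 of 12 correlations of deviations over 0.1; 2 highest with their own number), and with a replicate block 0 members were called in each comparison. TPM gives no depth, so low kinesins carry an unknown counting error.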
